A study of Mus musculus with 10 samples.

Results

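Cholesterol synthesis and its feedback control were followed through 7 genes in spatial transcriptomes of mouse liver tissue: *Hmgcs1*, *Idi1*, *Fdps*, *Sqle*, *Lss*, *Cyp51* and *Insig1*. They were picked out by symbol from the 31053 genes in the expression tables, and earlier results of these data were known when the set was put together. Each symbol matched 1 row. The set had been put together under the heading of cholesterol synthesis and uptake, but 6 of its genes encode enzymes of synthesis and the remaining one a regulator. None encodes an uptake receptor, so counts over a list of uptake and transport genes are given beside them.

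Visium arrays capture polyadenylated RNA from a tissue section on barcoded spots, and a spot is a patch of tissue in which cells of several types may lie. The 7 tissues gave 10 sections, of which 4 were cut next to each other from NEJ146, and NEJ634, NEJ687, NEJ723, NEJ638, NEJ654 and NEJ677 gave 1 section apiece. The model is the ABC-Myc mouse on a C57BL/6J background, in which Cre under the albumin enhancer and promoter removes a floxed stop cassette and switches on human c-MYC driven by the CAG promoter at the R26 locus. Control littermates lacked 1 or both of these alleles. The labels call every sample hepatoblastoma and identify NEJ146 as tumor. In the study's own text NEJ146, NEJ634, NEJ687 and NEJ723 are tumors, which leaves NEJ638, NEJ654 and NEJ677 as the healthy livers that it counts among its tissues. Groups were taken from the labels, which do not say this of the 6 tissues with 1 section, so each tissue was kept as its own group, with no test between tissues. Age, alleles and time of harvest are not given for each tissue.

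The sections held between 61627315 and 117556249 UMIs (unique molecular identifiers, each standing for 1 captured RNA molecule) over all their spots. Of these, 39280329 (NEJ677) to 117077925 (NEJ146, section 3) lay on tissue spots, which numbered 1890 to 4878 per section. Mitochondrial genes took 6.78 to 7.22% of UMIs in the NEJ146 sections and 2.46 to 3.86% in the others. NEJ146 was also labelled as total RNA, where the other tissues were labelled as polyA RNA, and its spots were selected by their UMIs. These differences cannot be told apart from the tissue. Hepatocyte markers (*Alb*, *Apoa1*, *Ttr*, *Serpina1a* and *Cyp2e1*) summed to 18771 to 29444 CPM (the gene's counts scaled to 1000000 counts per section) in NEJ146, NEJ634, NEJ687 and NEJ723 and to 84980 to 119090 CPM in NEJ638, NEJ654 and NEJ677. Markers of fetal liver and hepatoblastoma (*Afp*, *Igf2*, *Dlk1* and *Gpc3*) summed to 2136 to 4630 CPM in the former and 4.61 to 15.0 CPM in the latter. The part of cell makeup in the differences between tissues described here was not tested, and fewer hepatocytes cannot be told apart from less RNA per hepatocyte.

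Cholesterol is built from acetyl-CoA through mevalonate, isoprenoid phosphates, squalene and lanosterol, and the liver is a major site of this work. When sterol is scarce in the endoplasmic reticulum, the SCAP protein escorts the transcription factor SREBP-2 to the Golgi, where it is cut and released to switch on nearly every gene of the pathway. INSIG proteins hold SCAP back when sterol is plentiful. The pathway is also known to follow feeding and the daily clock in liver.

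The genes lie on 5 chromosomes of GRCm38. *Hmgcs1* (ENSMUSG00000093930, chr13:119690379-119708260) and *Idi1* (ENSMUSG00000058258, chr13:8885501-8892451) are far apart on the plus strand of chromosome 13. *Fdps* (ENSMUSG00000059743, chr3:89093588-89101959) and *Cyp51* (ENSMUSG00000001467, chr5:4081145-4104746) are on the minus strand, and *Sqle* (ENSMUSG00000022351, chr15:59315077-59331192), *Lss* (ENSMUSG00000033105, chr10:76531588-76557138) and *Insig1* (ENSMUSG00000045294, chr5:28071363-28078662) on the plus strand. Promoter sequence from RefSeq (GRCm38.p6) was at hand for 5 of the 7 genes. *Fdps* and *Sqle* had no entry. The promoters of *Hmgcs1*, *Lss* and *Insig1* are shown because the first 2 passed the spatial test described below and *Insig1* is the regulator. Each runs 5′ to 3′, for *Lss* and *Insig1* up to the annotated gene start and for *Hmgcs1* up to the RefSeq start, which lies before it, at chr13:119690101-119690350, chr10:76531355-76531587 and chr5:28071162-28071362, all on the plus strand. Capitals mark matches to the sterol regulatory element TCACNCCAC, the E-box CACGTG and CCAAT boxes, the last read as ATTGG on the printed strand.
Hmgcs1: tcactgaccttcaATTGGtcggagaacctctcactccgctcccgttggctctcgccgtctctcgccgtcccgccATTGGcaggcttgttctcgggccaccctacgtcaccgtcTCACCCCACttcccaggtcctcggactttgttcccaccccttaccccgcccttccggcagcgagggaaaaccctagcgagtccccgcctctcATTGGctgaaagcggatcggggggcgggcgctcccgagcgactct
Lss: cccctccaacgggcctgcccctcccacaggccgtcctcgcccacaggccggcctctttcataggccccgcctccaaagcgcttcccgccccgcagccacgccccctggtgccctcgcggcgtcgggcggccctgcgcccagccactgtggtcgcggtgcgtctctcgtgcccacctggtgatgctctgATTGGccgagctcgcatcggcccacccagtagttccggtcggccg
Insig1: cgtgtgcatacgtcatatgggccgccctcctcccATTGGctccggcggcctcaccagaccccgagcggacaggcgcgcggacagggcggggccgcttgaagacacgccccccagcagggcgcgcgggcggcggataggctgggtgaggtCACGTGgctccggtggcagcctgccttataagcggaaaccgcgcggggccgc
Both strands of the 250 bases before each RefSeq start were searched. CCAAT was found in 5 of 5 promoters against 33.8% of all 32851. Copies lay 237, 176 and 45 bases before the start of *Hmgcs1*, 62 before that of *Lss* and 216 before that of *Insig1*. The copies of *Idi1*, 45 and 14 bases before its RefSeq start, and of *Cyp51*, 29 bases before, lie inside the annotated gene. TCACNCCAC was found in *Hmgcs1*, 137 bases before its start, against 1.05% of all promoters. Its shorter core CACNCCAC, which overlaps that match, was found in *Hmgcs1* and *Insig1* against 5.29% of all promoters. The *Insig1* copy lies 9 bases before the RefSeq start, beyond the sequence printed. CACGTG was found in *Insig1*, 101 bases before its start, against 6.02% of all promoters. These matches describe letters and not bound sites.

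All 7 genes had their highest level in NEJ638. The lowest level was in NEJ723 for *Hmgcs1*, *Idi1*, *Fdps* and *Insig1* and in NEJ146 for *Sqle*, *Lss* and *Cyp51*. Levels are CPM over all tissue spots of a section. They rest on 1155 to 26772 UMIs per gene and section, with exact Poisson 95% intervals reaching at most 5.94% from the value. The intervals cover counting error only. The values of NEJ146 are means ± SD over its 4 sections, which measure the spread between sections of 1 tissue and not between animals. Tissues are called separate where their intervals did not overlap and their log2(CPM + 1) difference exceeded 2 times the larger of the gene's SD over the NEJ146 sections and the SD of the median gene, 0.0811. For NEJ146 the range of CPM over its 4 sections took the place of the interval. By this rule NEJ638 was not separate from the next highest tissue for *Sqle*, *Cyp51* and *Insig1*. The 4 sections of NEJ146 are not alike in every respect, since section 4 stood apart from the other sections over all genes.

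*Hmgcs1* encodes the cytosolic HMG-CoA synthase, an early step of the pathway. Its level was 523 CPM in NEJ638, 456 CPM in NEJ654, 395 CPM in NEJ677, 170 CPM in NEJ634, 136 ± 7.0 CPM in NEJ146 (SD over 4 sections), 88.9 CPM in NEJ687 and 55.1 CPM in NEJ723. Every neighbour in this order was separate from the next, and the distance between the ends, 3.22 on the log2(CPM + 1) scale, was the widest among the 7 genes. The NEJ146 sections held 136.7, 145.2, 128.2 and 134.6 CPM. The section that stood apart, section 4, was the lowest NEJ146 section for 5 of the genes, with *Idi1* at 38.7 CPM (42.4 to 51.9 in the other sections), *Fdps* at 57.0 CPM (70.2 to 79.3), *Sqle* at 19.1 CPM (25.1 to 31.7), *Cyp51* at 30.1 CPM (38.5 to 44.5) and *Insig1* at 64.9 CPM (69.9 to 87.1).

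*Idi1* and *Fdps* act next, *Idi1* interconverting the 2 isoprenoid building blocks and *Fdps* joining them to farnesyl diphosphate. *Idi1* reached 255 CPM in NEJ638, 151 CPM in NEJ677, 139 CPM in NEJ654, 69.5 CPM in NEJ634, 44.3 ± 5.54 CPM in NEJ146 (SD, n = 4), 43.2 CPM in NEJ687 and 34.9 CPM in NEJ723. *Fdps* followed the same order, at 343, 187, 171, 114, 69.6 ± 9.30 (SD, n = 4), 62.1 and 53.7 CPM. For both genes NEJ677 was not separate from NEJ654, nor NEJ146 from NEJ687, nor NEJ687 from NEJ723. The paralog *Idi2* had no UMI in any tissue, which allows a level of at most 0.00789 CPM in NEJ146 and 0.0764 CPM in NEJ677.

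*Sqle*, *Lss* and *Cyp51* carry squalene to the first sterols. *Sqle*, the squalene epoxidase and a second control point of the pathway, was at 113 CPM in NEJ638, 102 CPM in NEJ723, 80.8 CPM in NEJ634, 79.2 CPM in NEJ687, 74.5 CPM in NEJ677, 57.2 CPM in NEJ654 and 25.4 ± 5.15 CPM in NEJ146 (SD, n = 4). Only NEJ146 was separate from its neighbour. NEJ723 was thus the next highest tissue for *Sqle* and the lowest for *Hmgcs1*.

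*Lss* encodes lanosterol synthase, which closes the sterol rings. Its level was 73.6 CPM in NEJ638, 46.6 CPM in NEJ634, 32.7 CPM in NEJ654, 30.7 CPM in NEJ687, 30.4 CPM in NEJ723, 29.4 CPM in NEJ677 and 23.7 ± 1.66 CPM in NEJ146 (SD, n = 4). The 4 tissues between 29.4 and 32.7 CPM were not separate. *Cyp51*, the lanosterol demethylase, was at 191 CPM in NEJ638, 136 CPM in NEJ654, 134 CPM in NEJ677, 74.996 CPM in NEJ634, 49.1 CPM in NEJ687, 41.5 CPM in NEJ723 and 38.9 ± 6.38 CPM in NEJ146 (SD, n = 4). For *Cyp51*, a separate step lay between NEJ677 and NEJ634 and another between NEJ634 and NEJ687.

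*Insig1*, itself a target of SREBP-2, was at 238 CPM in NEJ638, 196 CPM in NEJ654, 131 CPM in NEJ677, 121 CPM in NEJ687, 73.6 ± 9.55 CPM in NEJ146 (SD, n = 4), 71.9 CPM in NEJ634 and 42.2 CPM in NEJ723. NEJ638 and NEJ654, NEJ677 and NEJ687, and NEJ146 and NEJ634 were not separate. NEJ634, which exceeded the NEJ146 mean for the 6 enzymes, did not do so for *Insig1*. Its paralog *Insig2* had another pattern, with 316 CPM in NEJ654, 312 CPM in NEJ677, 76.8 CPM in NEJ638, 58.8 CPM in NEJ146 and 17.9 to 32.9 CPM in the remaining tissues.

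**Figure D1:**
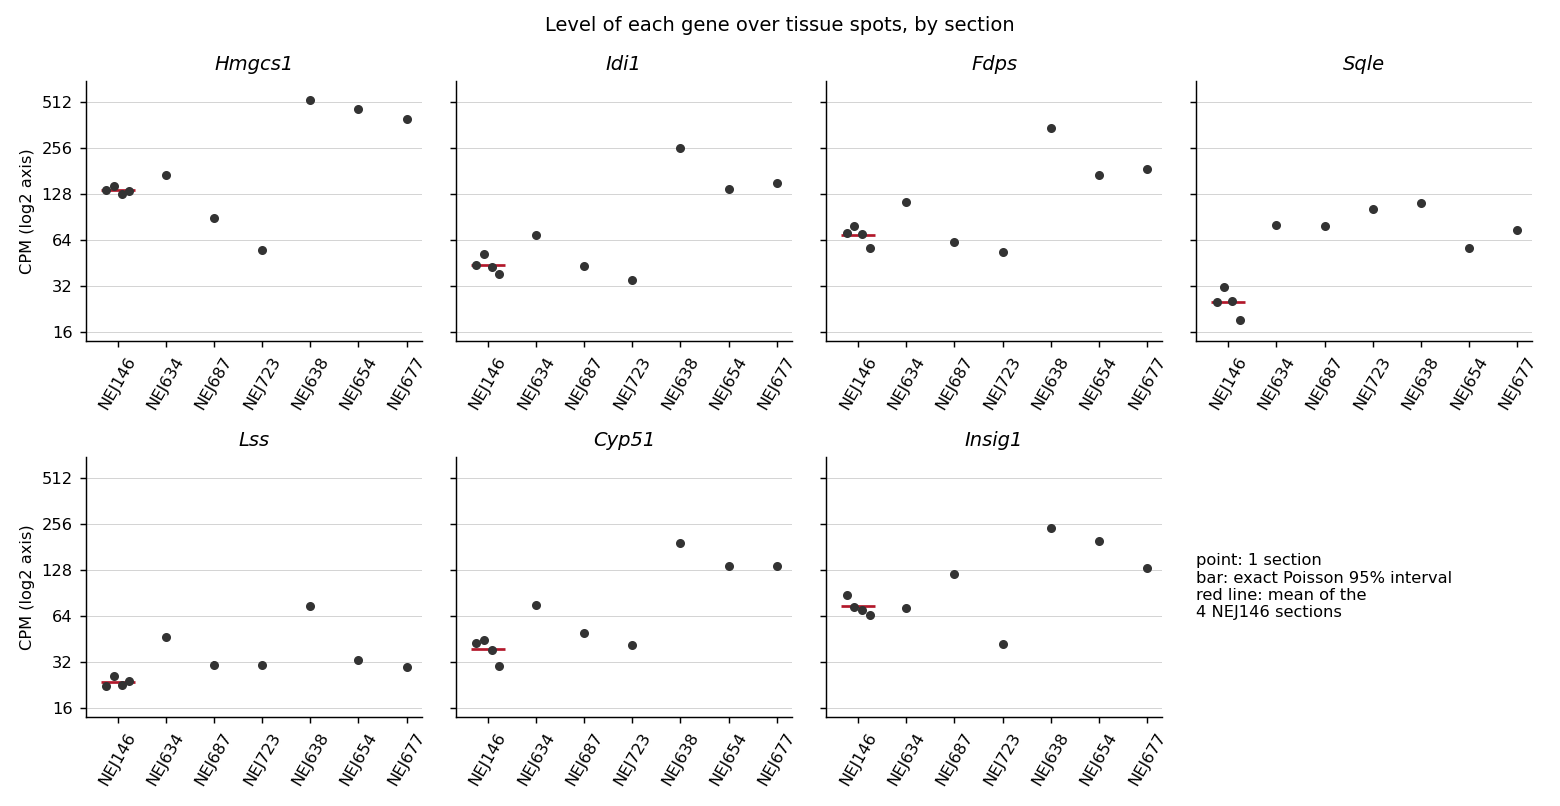
Level of each gene in CPM (log2 axis) over the tissue spots of each section. Points are sections, bars are exact Poisson 95% intervals, mostly shorter than the point, and the red line is the mean of the 4 NEJ146 sections. *Hmgcs1*, *Idi1*, *Fdps* and *Cyp51* lie higher in NEJ638, NEJ654 and NEJ677 than in the remaining tissues, while *Sqle* runs from 57.2 to 113 CPM in 6 tissues and is at 25.4 CPM in NEJ146.

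The log2(CPM + 1) range over the tissues was at least 2 for 6 of the 7 genes, against 22.8% of the 8021 genes whose mean level reached 10 CPM. The median range was 2.47 for the 7 genes and 1.22 for all genes. *Lss* had the narrowest range, 1.60, and *Sqle* the next, 2.11. Without NEJ146, or with its section 4 left out, *Sqle* fell under 2 and 5 of 7 genes remained at or above it.

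Of the 14 other enzymes of the pathway, 5 had a range of at least 2. Their summed level was 3295 CPM in NEJ638, 2487 CPM in NEJ654, 2108 CPM in NEJ677, 1691 CPM in NEJ634, 1642 CPM in NEJ687, 1156 ± 107 CPM in NEJ146 (SD, n = 4) and 1094 CPM in NEJ723. *Tm7sf2* and *Sc5d*, both late in the pathway, ranged from 15.9 to 168 CPM and from 87.3 to 692 CPM.

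*Srebf2*, which encodes SREBP-2, spanned 45.4 CPM in NEJ677 to 110 CPM in NEJ723. Of the list genes whose mean reached 10 CPM, 3 of 6 sterol-sensing genes had a range of at least 2, as had 5 of 8 genes of efflux and disposal and 1 of 5 of the isoprenoid branch (*Pdss1*), beside the 22.8% of all genes at that level.

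Over the 7 tissues, the mean log2(CPM + 1) of the 7 genes was most like *Nsdhl* (Pearson r = 0.986), *Mvd* (0.985), *Vegfa* (0.983), *Slc23a1* (0.982) and *Paqr7* (0.980) among 4983 genes. *Nsdhl* and *Mvd* are enzymes of the same pathway. The coefficient was -0.632 for *Srebf2*. These describe 7 points from single tissues that differ in the level of hepatocyte markers, and *Alb* itself had r = 0.923. Of the clock list, *Dbp* was at 209 CPM in NEJ638, 48.2 CPM in NEJ677, 2.99 CPM in NEJ654 and 4.37 to 18.5 CPM in the others. Of the 8 fatty acid synthesis genes, 4 had a range of at least 2 over the tissues, with *Thrsp* highest in NEJ638 (1215 CPM) and *Scd1* in NEJ677 (2293 CPM), and *Fasn* ran from 202 to 430 CPM. The part of harvest time or feeding in the levels was not tested.

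The genes were then mapped within sections. Their summed UMIs per 10000, averaged over each spot and its adjacent spots, were widest apart in NEJ146, where section 1 had 2.20 at the 10th percentile of spots, 3.32 at the median and 6.61 at the 90th, a 3.01-fold span. The span was 2.14-fold in NEJ634, 1.95-fold in NEJ687 and 1.88-fold in NEJ723. In NEJ638, NEJ654 and NEJ677 the medians were higher, at 17.0, 11.9 and 11.0, and the spans were 1.39-fold, 1.40-fold and 1.46-fold. Counting error is larger for spots with few UMIs of these genes, and its part in the spans was not tested. In the 6 tissues with a position file, 4199293 UMIs (NEJ687) to 34739289 UMIs (NEJ634) lay on spots outside the tissue. Tissue spots held 57428022 UMIs in NEJ687 and 56536112 UMIs in NEJ634. The part of the signal outside the tissue in the patterns within sections was not tested.

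**Figure D2:**
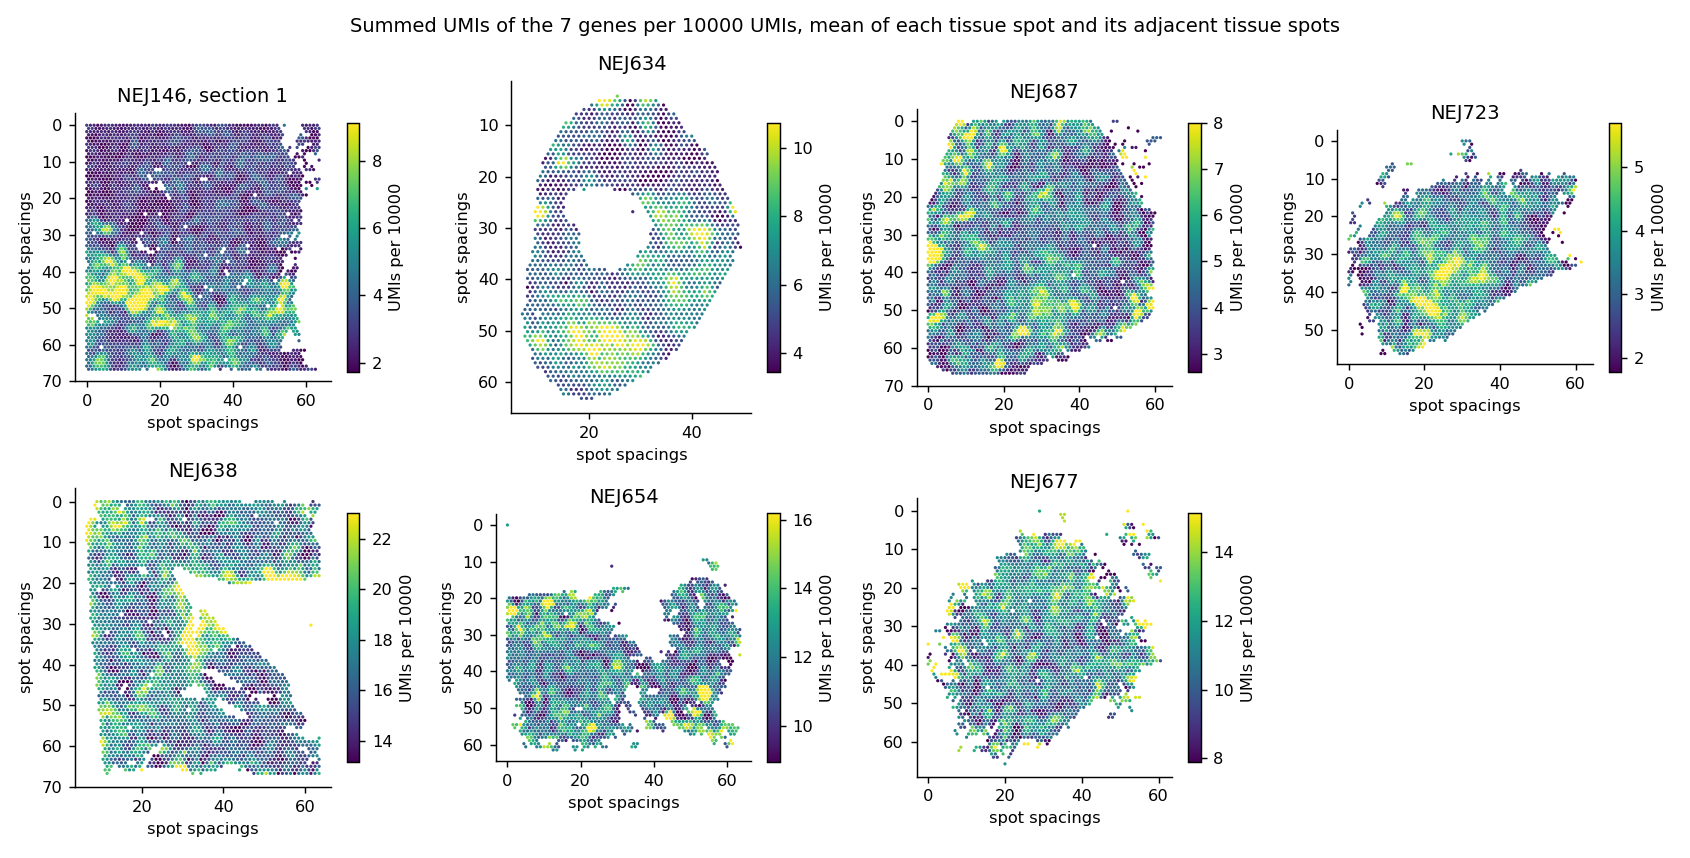
Summed UMIs of the 7 genes per 10000 UMIs on tissue spots of 1 section of each tissue, as the mean of each spot and its adjacent spots. Axes are in spot spacings, spots have at least 1000 UMIs, and each section has its own colour scale from its 2nd to its 98th percentile. NEJ146 shows broad areas of high and low signal, with a 3.01-fold span between the 10th and 90th percentile, against 1.39-fold in NEJ638.

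Moran's I, which is near 0 for a scattered pattern and rises where adjacent spots resemble each other, was computed on log values and ranked among all genes with at least 500 UMIs in a section. Ranks were not matched for a gene's UMIs, which in NEJ654 ran from 1390 for *Lss* to 19397 for *Hmgcs1*. The part of these UMIs in the ranks was not tested. In NEJ146, 5 of the 7 genes were in the top 10% of genes in each of the 4 sections, the exceptions being *Lss* and *Insig1*. *Fdps* led with 0.326, 0.301, 0.347 and 0.309, and *Hmgcs1* had 0.247, 0.246, 0.276 and 0.285. *Lss* had 0.0450, 0.0645, 0.0506 and 0.0289, against a median of all genes of 0.0168 to 0.0205.

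NEJ634 had 5 genes in the top 10%, led by *Fdps* at 0.286 and *Sqle* at 0.242, with *Idi1* and *Insig1* outside. NEJ638 had 3, *Hmgcs1* at 0.180, *Fdps* at 0.134 and *Idi1* at 0.081. NEJ654 and NEJ677 each had *Hmgcs1* alone, at 0.0691 and 0.220. NEJ687 and NEJ723 had none, although *Hmgcs1* reached 0.128 in NEJ687 and *Sqle* 0.212 in NEJ723. With spots of at least 1000 UMIs, values in NEJ687 and NEJ723 were lower, and all but *Idi1* in NEJ723 ranked higher. There *Hmgcs1*, *Sqle* and *Insig1* were in the top 10% in both tissues, *Fdps* in NEJ687 and *Cyp51* in NEJ723, with *Sqle* at 0.0819 in NEJ723. *Hmgcs1* in NEJ677 came to 0.054 with those spots and stayed in the top 10%. In NEJ638 the values became 0.0895 for *Hmgcs1*, 0.0679 for *Fdps* and 0.0497 for *Idi1*, all still in the top 10%, which *Lss* then joined at 0.0385.

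**Figure D3:**
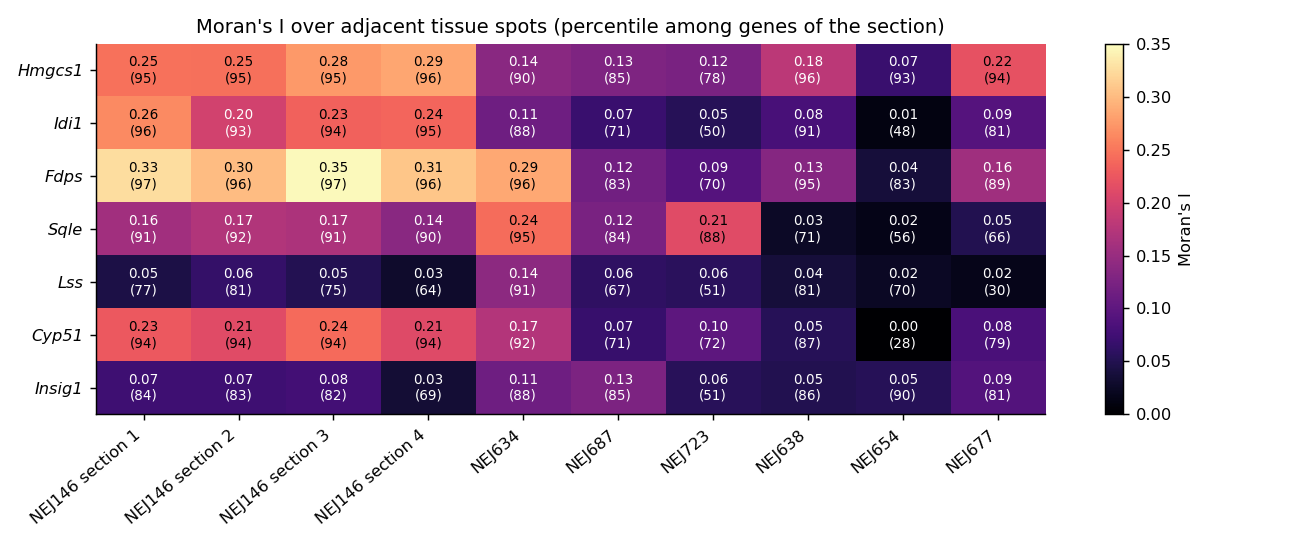
Moran's I of each gene in each section, from log(1 + UMIs per 10000) over adjacent tissue spots. Each cell gives the value and, in brackets, its percentile among the genes ranked in that section. *Fdps* has the largest value in every NEJ146 section.

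To ask whether the genes varied in space with the rest of their pathway, spots were ranked by the UMIs per 10000 of the 14 other cholesterol enzymes, none of which is among the 7 genes. Ranking was done among spots of like total UMIs. Spots were divided by rank into 3 equal groups, and the highest group was compared with the lowest. UMIs were summed per tissue, so that the 7 tissues are the replicates, and all 14350 genes were tested with edgeR's quasi-likelihood test with the tissue as a block. The 7 tissues are of different kinds, and the test asks for a difference shared by them.

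*Hmgcs1* and *Lss* were higher in the spots high for the other enzymes. The log2 difference was 0.48 (SE 0.071, n = 7 tissues) for *Hmgcs1*, with an edgeR adjusted p of 0.0132, and 0.49 (SE 0.080) for *Lss*, with an edgeR adjusted p of 0.0265. Of all genes, 0.0418% passed in this direction, 6 in all. The 5 other genes did not pass, with 0.58 (SE 0.12) for *Fdps*, 0.53 for *Idi1*, 0.53 for *Cyp51*, 0.42 for *Sqle* and 0.33 for *Insig1* and edgeR adjusted p of 0.103 to 0.195. Each of the 7 genes was higher in the high spots in every one of the 7 tissues. The share of all genes that were so was not counted. The exact binomial 95% interval of the ratio, which covers counting error only, lay above 0 in 44 of the 49 combinations of gene and tissue and below 0 in none. Shares of all genes with intervals above 0 are given below for each tissue.

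Which of the 7 genes passed depended on NEJ146, in which the differences were largest for 5 of the genes. *Hmgcs1* and *Lss* passed with NEJ146 and also without it. Without it, 6 of 7 genes passed in edgeR, with adjusted p of 0.00105 for *Hmgcs1*, 0.0318 for *Idi1*, 0.0281 for *Fdps*, 0.0489 for *Sqle*, 0.0170 for *Lss* and 0.0323 for *Cyp51*, and 0.137 for *Insig1*. The differences were smaller than with NEJ146, at 0.39 for *Idi1*, 0.45 for *Fdps*, 0.38 for *Cyp51* and 0.32 for *Sqle*. In that fit 0.303% of 14208 genes passed as higher. All 7 passed in DESeq2, *Insig1* with an adjusted p of 0.0381, where 1.08% of the 3427 genes given an adjusted p passed as higher. *Hmgcs1* was lost without NEJ634 (edgeR adjusted p = 0.0567) or NEJ687 (0.0532), and *Lss* without NEJ654 (0.0627), NEJ677 (0.0737) or NEJ687 (0.0821). With the other enzymes weighted equally in the ranking, an alternative chosen after seeing the data, *Hmgcs1* passed (0.0410) and *Lss* did not (0.188). Of 20 alternatives to this test, *Hmgcs1* passed in 17 and *Lss* in 15. *Idi1*, *Fdps*, *Sqle* and *Cyp51* each passed in 3 and *Insig1* in 2.

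In NEJ146 the log2 ratio was 1.35 for *Cyp51*, 1.297 for *Idi1*, 1.296 for *Fdps*, 0.99 for *Sqle*, 0.92 for *Hmgcs1*, 0.62 for *Lss* and 0.48 for *Insig1*. The 4 sections gave 1.28 to 1.45 for *Cyp51* and 0.85 to 0.98 for *Hmgcs1*. All 7 intervals lay above 0, against 29.2% of genes in that tissue. Divided into 5 equal groups of spots instead, *Hmgcs1* stood at 92.7, 107, 124, 150 and 204 CPM from the lowest to the highest group, so that each step of the other enzymes went with a higher level.

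In NEJ634 the ratio was 0.95 for *Fdps*, 0.89 for *Lss*, 0.81 for *Idi1*, 0.81 for *Cyp51*, 0.79 for *Insig1*, 0.62 for *Sqle* and 0.54 for *Hmgcs1*. Again 7 of 7 intervals lay above 0, against 10.6% of genes. Here *Lss* and *Insig1* had larger ratios than in NEJ146 and the other 5 genes smaller ones. NEJ687 had ratios of 0.35 to 0.50 with 7 of 7 above 0, against 11.5% of genes. NEJ723 had ratios of 0.16 to 0.39 with 6 of 7 above 0, against 7.21%, and the interval of *Lss* held 0.

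In NEJ638 the ratios ran from 0.12 for *Insig1* to 0.36 for *Hmgcs1*, and 7 of 7 intervals lay above 0 against 14.6% of genes. NEJ654 had 5 of 7 above 0, against 7.96% of genes, with 0.38 for *Lss* and 0.32 for *Fdps*. NEJ677 had 5 of 7 above 0, against 12.2%, with 0.44 for *Lss* and 0.41 for *Hmgcs1*. In both of these tissues the intervals of *Sqle* (0.12 in each) and *Insig1* (0.06 and 0.05) held 0.

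**Figure D4:**
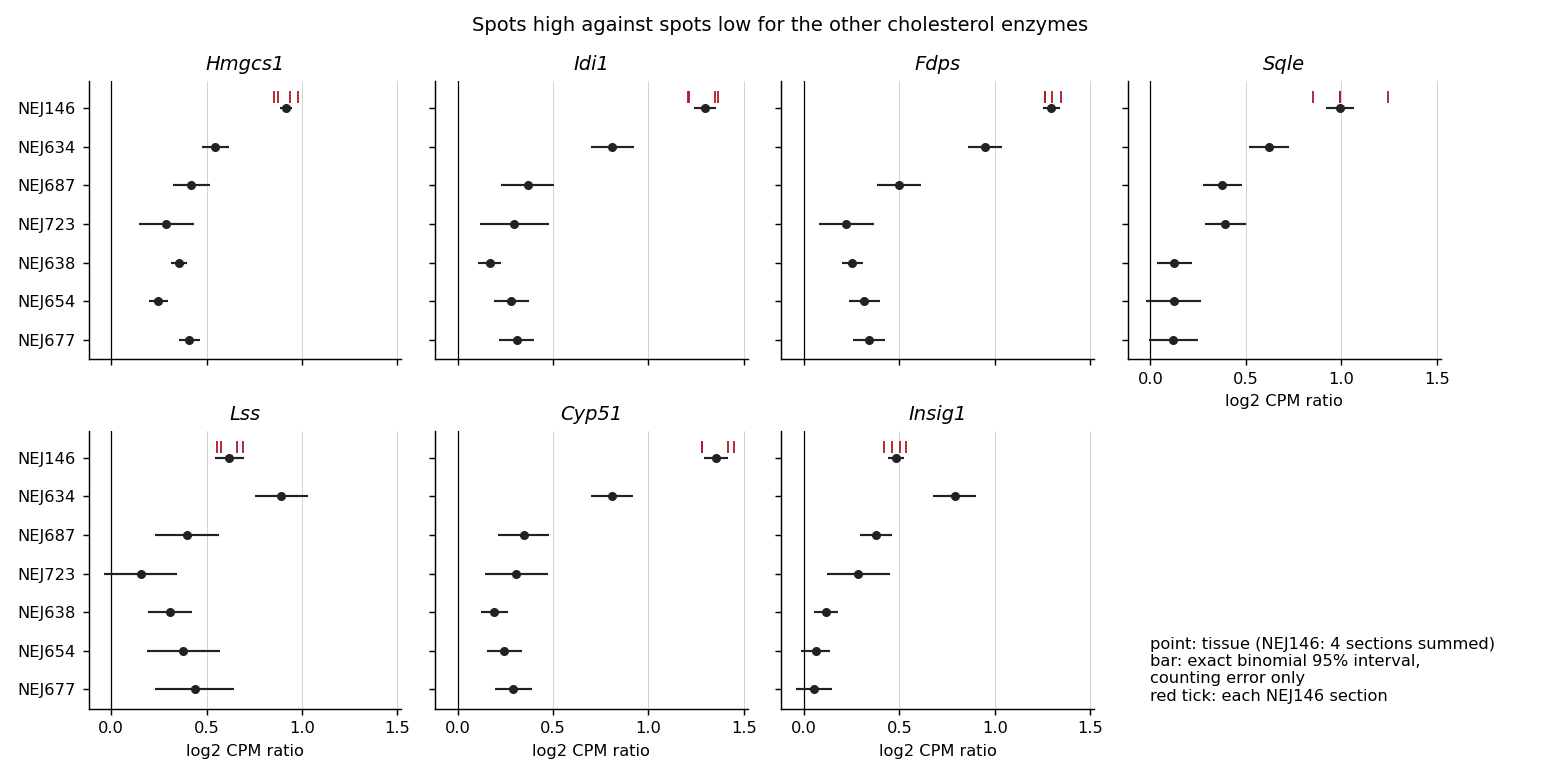
Log2 ratio of CPM between spots high and spots low for the 14 other cholesterol enzymes, for each gene and tissue. Points are tissues with exact binomial 95% intervals, which cover counting error only, and red ticks are the 4 NEJ146 sections. All 49 points lie to the right of 0, from 0.05 for *Insig1* in NEJ677 to 1.35 for *Cyp51* in NEJ146.

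Markers of other cell types moved with this ranking in some tissues. The log2 ratio of the summed erythroid markers (*Hba-a1*, *Hbb-bs*, *Alas2* and *Gata1*) was -1.81 in NEJ146, -1.51 in NEJ634, -1.45 in NEJ687 and -0.76 in NEJ723, from levels of up to 13010 CPM in the low spots. That of the hepatocyte markers was 0.73 in NEJ146, 0.60 in NEJ634, 0.04 in NEJ687 and 0.24 in NEJ723. Neutrophil markers had -0.91 in NEJ146 and -1.39 in NEJ634. None of the 4 erythroid, 5 hepatocyte or 4 neutrophil markers passed the test over tissues, and their part in the ratios of these tissues was not tested. In NEJ638, NEJ654 and NEJ677 the erythroid ratio lay between -0.12 and 0.14 and the hepatocyte ratio between -0.09 and -0.07, where *Hmgcs1* had 0.25 to 0.41 and *Lss* 0.31 to 0.44. Bile duct markers (*Krt19*, *Krt7*, *Epcam* and *Spp1*) did move with the ranking there, with -1.60 in NEJ638, -1.36 in NEJ654 and -1.53 in NEJ677, from 109 to 237 CPM in the low spots, and with -1.27 in NEJ634, but 0.44 in NEJ146, 0.48 in NEJ687 and 0.05 in NEJ723. In NEJ634 Kupffer cell markers had -0.85 and stellate cell and fibroblast markers -0.69, while the latter had 0.56 in NEJ146. None of the 4 bile duct genes passed the test over tissues, and the part of these markers in the ratios was not tested.

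The genes that passed beside them included *Erg28*, a scaffold of sterol synthesis, at 0.23, *Rdh11*, a retinol dehydrogenase, at 0.35, and *Ccdc152* at 0.31. Those that fell included *Hbb-bt*, a beta globin, by 0.97, *Cd24a* by 0.73, *Tmsb4x* by 0.27 and *Ucp2* by 0.24, each in 7 of 7 tissues. None of the 10 uptake and transport genes passed. None of the 6 sterol-sensing genes passed, with 0.12 for *Srebf2*, and none of the 8 fatty acid synthesis genes, with 0.82 for *Scd1*. Nor did *Cyp7a1*, the rate-limiting enzyme of bile acid synthesis, at 0.53 (edgeR adjusted p = 0.0636).

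Liver metabolism is zonated between the portal and the central end of the lobule, so spots were also ranked by 5 pericentral genes (*Glul*, *Cyp2e1*, *Cyp1a2*, *Oat* and *Slc1a2*) over 5 periportal genes (*Cyp2f2*, *Hal*, *Hsd17b13*, *Ass1* and *Pck1*). The 2 sides are named by rank within a tissue. In NEJ146, NEJ634, NEJ687 and NEJ723 the periportal genes exceeded the pericentral genes even in pericentral-side spots, at 1230 against 420 CPM in NEJ634. A position in the lobule was thus not shown for spots of these tissues, and their ratios describe the ranking only. None of the 7 genes passed between the pericentral-side and the periportal-side spots, against 0.793% of the 14380 genes tested, in either direction. *Insig1* came closest. It was lower on the pericentral side, by value, in 7 of 7 tissues, with a log2 difference of -0.27 (SE 0.065, n = 7) and an edgeR adjusted p of 0.0984, and it passed in DESeq2 at 0.0343. The values were 0.14 for *Fdps*, 0.09 for *Hmgcs1*, 0.08 for *Cyp51*, 0.05 for *Idi1*, -0.15 for *Lss* and -0.16 for *Sqle*, with edgeR adjusted p of 0.422 to 0.929. Without NEJ146 they became 0.0044 for *Fdps* and -0.29 for *Sqle*, and without NEJ634 0.28 for *Fdps*, -0.068 for *Lss* and -0.097 for *Sqle*.

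These values are averages over tissues in which single genes lay on opposite sides. In NEJ677 the log2 ratio was 0.47 for *Fdps*, 0.38 for *Cyp51*, 0.30 for *Hmgcs1* and 0.24 for *Idi1*, 4 of 7 with intervals above 0 against 32.8% of genes. In the same spots it was -0.43 for *Insig1* and -0.29 for *Sqle*, 2 of 7 below 0 against 11.5%. By these intervals, which cover counting error only, the 7 genes were not all on 1 side in this tissue. Nor were the genes as a whole, as the shares show.

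NEJ654 also had genes on both sides, with 0.34 for *Fdps*, 0.13 for *Cyp51* and 0.12 for *Idi1* above 0, 3 of 7 against 34.6% of genes, and -0.38 for *Sqle* and -0.31 for *Insig1* below 0, 2 of 7 against 9.38%. The interval of *Hmgcs1* held 0 there. NEJ638 had 0.31 for *Fdps*, 0.22 for *Cyp51* and 0.16 for *Hmgcs1* above 0, 3 of 7 against 22.4%, and -0.23 for *Sqle* and -0.11 for *Insig1* below 0, 2 of 7 against 13.9%. *Fdps* and *Cyp51* lay above 0 and *Sqle* and *Insig1* below 0 in each of these 3 tissues. The bile duct markers had a log2 ratio of -2.82 in NEJ677, -2.54 in NEJ654 and -2.63 in NEJ638 on this ranking, and Kupffer cell markers (*Clec4f*, *Cd5l*, *Vsig4* and *Adgre1*) -0.71, -0.48 and -0.18. The hepatocyte markers had -0.39, -0.46 and -0.28. The part of these markers in the ratios of the 7 genes was not tested.

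NEJ146 and NEJ634 differed in sign. In NEJ146 the ratio was 1.01 for *Fdps*, 0.93 for *Cyp51*, 0.90 for *Idi1*, 0.70 for *Hmgcs1*, 0.69 for *Sqle* and 0.16 for *Lss*, 6 of 7 above 0 against 34.8% of genes, and -0.03 for *Insig1*. In NEJ634 it was -0.67 for *Fdps*, -0.55 for *Lss*, -0.53 for *Cyp51*, -0.45 for *Sqle*, -0.44 for *Insig1*, -0.43 for *Idi1* and -0.12 for *Hmgcs1*, 7 of 7 below 0 against 8.55% of genes. The difference between the 2 tissues was not tested. The erythroid markers had a log2 ratio of -1.07 in NEJ146 and 1.299 in NEJ634, and the hepatocyte markers, of which *Cyp2e1* also enters the ranking, 0.48 and -0.48. Stellate cell and fibroblast markers (*Col1a1*, *Dcn*, *Lrat* and *Reln*) had 1.23 and 0.38, and bile duct markers 0.81 and 0.49. In NEJ634 neutrophil markers had 0.62 and Kupffer cell markers 0.53. The summed stellate cell and fibroblast markers were higher on the pericentral side in 7 of 7 tissues, and 1 of the 4, *Reln*, passed the test (0.51, edgeR adjusted p = 0.0301). Endothelial markers (*Stab2*, *Kdr*, *Pecam1* and *Clec4g*) were also higher there in 7 of 7 tissues, by 0.09 to 0.44. None of these 4 passed. The part of these markers in the ratios was not tested.

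NEJ687 had 6 of 7 below 0, against 6.29% of genes, with ratios of -0.12 to -0.25 and *Lss* (-0.16) holding 0. The bile duct markers had -1.30 in NEJ687, from 110 CPM on the periportal side, the neutrophil markers 0.31 and the stellate cell and fibroblast markers 0.29, and their part was not tested. In NEJ723 every interval held 0. The pericentral genes summed to 81.4 CPM in NEJ723 and to 221 to 479 CPM in NEJ687, NEJ634 and NEJ146, against 4185 to 6280 CPM in NEJ677, NEJ638 and NEJ654, so the ranking rested on fewer UMIs there.

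**Figure D5:**
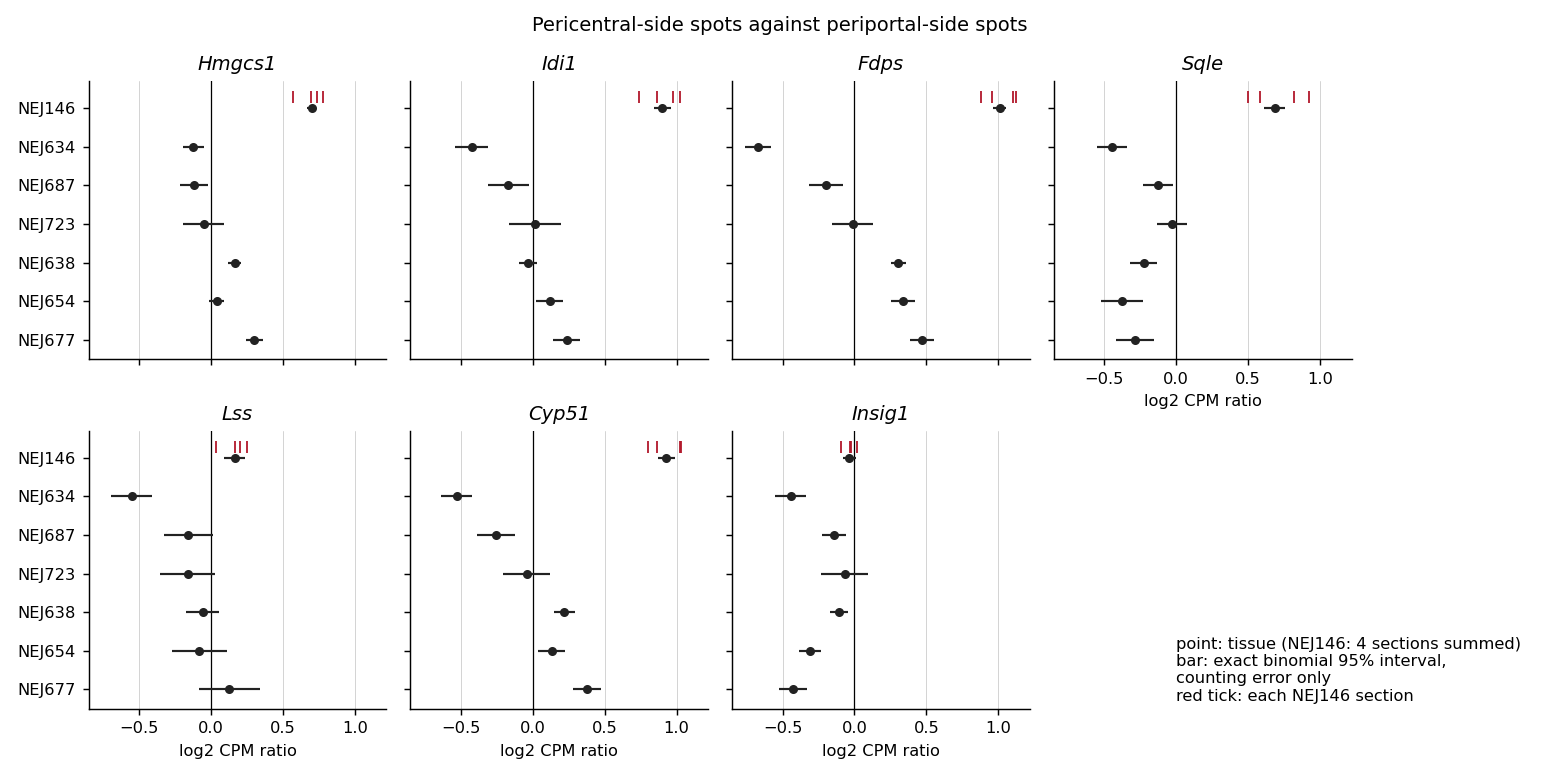
Log2 ratio of CPM between pericentral-side and periportal-side spots, for each gene and tissue, with the sides named by rank within a tissue. Points are tissues with exact binomial 95% intervals, which cover counting error only, and red ticks are the 4 NEJ146 sections. *Fdps* runs from -0.67 in NEJ634 to 1.01 in NEJ146, and all 7 points of *Insig1* lie to the left of 0.

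Of the other sterol genes, *Cyp7a1* was higher on the pericentral side (log2 difference 1.29, edgeR adjusted p = 0.00826), with 1.71 in NEJ677 and 1.52 in NEJ654, and so was *Mylip*, a ubiquitin ligase of the uptake and transport list (0.38, edgeR adjusted p = 0.0188), in 7 of 7 tissues. None of the 14 other enzymes, the 6 sterol-sensing genes or the 8 fatty acid synthesis genes passed. *Srebf1* had -0.27, negative in 7 of 7 tissues, with an edgeR adjusted p of 0.092. Genes that passed most widely were *Lhpp* at 2.47 and *Lect2* at 2.03 on the pericentral side, and *Clec2h* at -2.09 and *Dct* at -1.22 on the periportal side.

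Dividing cells need sterol for new membranes, so spots were ranked last by *Mki67*, *Top2a*, *Cdk1*, *Ccnb2* and *Birc5*. No gene of the 14363 tested passed in edgeR, which makes 0% in either direction, although 2233 had an unadjusted p under 0.05 and DESeq2 called 77 genes. The 7 genes had log2 differences of -0.04 for *Lss* to -0.23 for *Idi1*, with edgeR adjusted p of 0.280 to 0.762. Without NEJ146 the values shrank to -0.066 for *Idi1*, -0.056 for *Cyp51*, -0.043 for *Fdps*, -0.059 for *Hmgcs1* and -0.065 for *Insig1*. In NEJ146 all 7 were lower by their counting intervals in the spots high for proliferation, against 24% of genes, from -1.09 for *Idi1* and -1.05 for *Cyp51* to -0.20 for *Insig1*. In NEJ634, *Sqle* (0.34) and *Lss* (0.29) lay above 0, 2 of 7 against 26.4% of genes, and *Hmgcs1* (-0.15) and *Idi1* (-0.16) below it, 2 of 7 against 12.4%. There the neutrophil markers had -0.84, the Kupffer cell markers -0.64 and the erythroid markers 0.34, and their part was not tested. In NEJ687 *Hmgcs1* (-0.16) and *Cyp51* (-0.21) lay below 0, 2 of 7 against 6.05% of genes. *Sqle* lay below 0 in NEJ638, 1 of 7 against 3.05%, and *Hmgcs1* above 0 in NEJ654, 1 of 7 against 4.26%. Every interval held 0 in NEJ723 and NEJ677. The bile duct markers had -0.67 in NEJ687, and their part was not tested. The spots of NEJ654 and NEJ677 ranked lowest held no UMI of the 5 proliferation genes, so their ranking had little to rest on. In NEJ146 the log2 ratio on this ranking was -0.67 for the hepatocyte markers, -1.44 for the bile duct markers, -0.88 for the stellate cell and fibroblast markers and 0.86 for the markers of fetal liver and hepatoblastoma, and their part was not tested.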

How the data were processed

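Visium sections of 10 µm were cut from frozen tissue. The deposited gene by spot tables hold raw UMI counts, made by the authors with Cell Ranger 6.0 (NEJ146) or Space Ranger 1.3 on mm10 (other tissues) per the labels; the build for NEJ146 is not given in the sources used here. Tissue spots were those marked in the deposited position files, and for NEJ146, where no position file was used, spots with at least 8000 UMIs; its array positions came from the spot barcodes shared by all slides. Section totals and counting intervals are given with the levels.

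CPM used all genes. Rankings used spots with at least 1000 UMIs, within 10 groups of like total UMIs; NEJ146 sections were summed. Tests used edgeR 4.0.16 (TMM, filterByExpr, quasi-likelihood, Benjamini-Hochberg over all genes tested, threshold 0.05); genes of a score were left out of its counts. DESeq2 1.42.0 was an alternative, with other filters, splits, weights and left-out tissues. Scripts were tested on simulated data. No test was made between tissues. A spot is not a cell, doublets were not called, and cell types were not assigned. Reads shared with near-identical gene copies could be lost in counting.

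All 7 genes are named. From the fixed lists at most 4 genes each could be named (extremes of level and range), with a few set regulators, and in each test up to 5 genes in each direction over 10 CPM with 1 sign in 7 tissues. *Alb*, *Mylip*, *Pdss1* and *Dbp* were singled out after their values were seen. The genes and lists were chosen with earlier results of these data known. No published value was used. Some genes of the lists are not reported here by name.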

Additional observations from a re-analysis of the deposited data

Results flagged for a closer look

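The Moran's I of *Insig1* was 0.0344 in section 4 of NEJ146, far below the 0.073 to 0.078 of sections 1 to 3. It was the only 1 of 35 sets of 4 sections that stood out this way, where chance gives about 1 in 20.

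On the zonation ranking, all 4 NEJ146 sections lay above 0 and NEJ634 below it for 6 genes, with NEJ634 at -0.12 for *Hmgcs1*, -0.43 for *Idi1*, -0.67 for *Fdps*, -0.45 for *Sqle*, -0.55 for *Lss* and -0.53 for *Cyp51* on the log2 scale. On the proliferation ranking all 4 NEJ146 sections lay below 0, while *Hmgcs1* was at 0.085 in NEJ654 and *Sqle* and *Lss* at 0.34 and 0.29 in NEJ634. Counting intervals of all genes on the zonation ranking lay above 0 for 34.8% in NEJ146 and below 0 for 8.55% in NEJ634. On the proliferation ranking they lay below 0 for 24% in NEJ146, and above 0 for 26.4% in NEJ634 and 4.26% in NEJ654. The differences between these tissues were not tested.

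The 7 genes also had UMIs on spots outside the tissue. Their summed level there was 531 CPM in NEJ634, 1767 CPM in NEJ638, 306 CPM in NEJ723, 1092 CPM in NEJ654, 1069 CPM in NEJ677 and 537 CPM in NEJ687, against 628, 1736, 360, 1188, 1103 and 474 CPM on tissue spots of the same sections. They come from 34739289, 19257234, 26156263, 32103302, 25675323 and 4199293 UMIs outside the tissue, in the same order.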

How the results depend on the processing

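All 7 genes were highest by value in NEJ638 under every alternative to the level, and 5 to 7 of them had a wide range. Top 10% values of Moran's I numbered 30 of 70, and 28 to 42 under the alternatives, but counts of single sections moved more: NEJ687 and NEJ723 went from 0 to 4 with spots of at least 1000 UMIs, with Pearson residuals NEJ687 went to 4, NEJ723 to 3, NEJ677 from 1 to 2 and NEJ654 from 1 to 4, and NEJ654 went to 0 with neighbours within 2 steps. The number of genes past the zonation test was 114, and became 293 with DESeq2, 263 with no low-count filter, 0 with no tissue block and 40 to 184 with 1 tissue left out. For the other cholesterol enzymes it was 19, and became 55 with DESeq2, 132 with no low-count filter, 0 with no tissue block, 2 with equal weight of the enzymes in the score, an alternative chosen after seeing the data, and 9 to 108 with 1 tissue left out, the highest without NEJ146. With no tissue block neither *Hmgcs1* nor *Lss* passed. For proliferation it was 0, and became 77 with DESeq2, 89 with no low-count filter, 4 with spots split into 2 groups, and 0 to 51 with 1 tissue left out, the highest without NEJ146. The causes were not tested. With 1 tissue left out, the zonation value ran from -0.0026 to 0.13 for *Hmgcs1*, -0.082 to 0.14 for *Idi1* and -0.050 to 0.19 for *Cyp51*, and the proliferation value from -0.13 to 0.012 for *Sqle* and -0.093 to 0.027 for *Lss*. In each case the sign turned without NEJ146. No paired analysis was possible because 6 of the 7 tissues have 1 section and a replicate number only names a section, while the spot groups were compared within tissues, with the tissue as a block, throughout. With 7 tissues of different kinds, a difference present in some of them need not pass the shared test.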
